A study of Homo sapiens with 12 samples.

Results

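Interferon response genes were followed through RNA-seq of 2 ovarian cancer cell lines treated with THZ1, a covalent inhibitor of CDK7 that also acts on CDK12 and CDK13. The 9 genes were taken by exact row name: the transcription factors STAT2, IRF1, IRF7 and IRF9, and the effectors ISG15, IFIT1, IFIT3, OAS1 and MX1. Each had 1 row in both tables, out of 23621 rows that are not spike-ins, and all 9 were among the 14251 active genes, those above 1 FPKM in at least 1 of the 12 libraries. The cell lines were KURAMOCHI (Ku), grown in RPMI, and COV362 (Cov), grown in DMEM, both with fetal bovine serum, penicillin and streptomycin and both labelled as untransduced controls. Each line had 2 libraries of cells given DMSO, the vehicle, 2 of cells given 50 nM THZ1 and 2 of cells given 250 nM THZ1, all for 6 hr. The labels list no interferon treatment in any group. The labels do not say whether replicates were separate cultures, so p-values measure the spread between these libraries, which may be technical.

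Type I interferons bind the receptor chains IFNAR1 and IFNAR2, and the kinases JAK1 and TYK2 then phosphorylate STAT2. STAT2 acts with IRF9 in a complex that binds the interferon-stimulated response element (ISRE) of antiviral genes, whereas the gamma-activated site (GAS) is an element of IRF1 and other genes that respond to interferon gamma. IRF1 and IRF7 are themselves interferon-induced factors, and IRF7 drives further interferon production. Many cancer cell lines hold a low level of this program without added interferon. CDK7 and CDK12/13 phosphorylate RNA polymerase II during initiation and elongation.

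Of the 9 members, 8 had a promoter window in the RefSeq table for GRCh38.p14, which runs from 250 bases before a transcription start to 50 bases after it. IRF7 had none there. On both strands of these windows, 4 members held GAAA and again GAAA, set apart by any 2 bases (NN), the core of an ISRE, and 4 held TTC and GAA set apart by any 3 bases (NNN), the form of a GAS. Among all 35116 windows in the table, 3.574% held the first and 7.657% the second. The following stretches, each wholly upstream of its start, are shown because they carry those letters in the members whose values are described next, with 20 bases on each side of the match. Capitals mark the matched letters.
IRF1, GAS, chr5:132490869-132490917, minus strand: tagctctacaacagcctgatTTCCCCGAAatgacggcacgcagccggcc
IRF9, GAS, chr14:24161182-24161230, plus strand: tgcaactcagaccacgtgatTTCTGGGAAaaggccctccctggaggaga
OAS1, GAS, chr12:112906774-112906822, plus strand: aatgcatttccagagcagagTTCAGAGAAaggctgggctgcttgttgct
ISG15, overlapping ISREs, chr1:1013364-1013419, plus strand: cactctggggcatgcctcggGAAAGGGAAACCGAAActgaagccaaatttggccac
IFIT1, ISREs, chr10:89392487-89392549, plus strand: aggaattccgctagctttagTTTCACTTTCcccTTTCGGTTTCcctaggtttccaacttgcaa
IFIT3, ISREs, chr10:89327821-89327904, plus strand: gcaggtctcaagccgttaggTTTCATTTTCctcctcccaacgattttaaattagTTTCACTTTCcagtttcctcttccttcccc

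In ISG15 the 2 ISRE matches overlapped, at bases -113 to -104 and -107 to -98 from the start, and in IFIT1 they lay at -116 to -107 and -103 to -94, read on the opposite strand. The GAS matches lay at -124 to -116 in IRF1, at -63 to -55 in IRF9 and at -168 to -160 in OAS1. MX1 had 3 windows, of which the first held an ISRE match just after its start and the third an ISRE match overlapping a GAS match, and IFIT3 had a second window with 2 further ISRE matches. The STAT2 window held neither set of letters. A match is a description of the letters, not of binding. On GRCh37, the build of the deposited values, GENCODE places these protein-coding genes at chr12:56735381-56753987 (STAT2), chr5:131776132-131844411 (IRF1), chr11:612553-615983 (IRF7), chr14:24630443-24637252 (IRF9), chr1:936518-949920 (ISG15), chr10:91152303-91166244 (IFIT1), chr10:91087064-91137230 (IFIT3), chr12:113343661-113371024 (OAS1) and chr21:42791947-42841998 (MX1).

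Values are FPKM that the authors normalized to ERCC spike-ins added to RNA from equal cell numbers, so a fall over all genes is kept in the values. The FPKM of all genes summed to between 607016 and 1686567 per library, with lower sums at each higher dose in both lines. Read counts are not in the tables, so depth is unknown. In Ku 5276 rows and in Cov 4896 shared 1 low value within each library, which lay between 0.0783 and 0.119 FPKM, and every value of the 9 members lay above it. Of 9 epithelial markers of serous ovarian cancer 8 were above 1 FPKM in DMSO in each line, with PAX8 at a mean of 136 in Ku and 124 in Cov, while MUC16 was at 0.166 in Ku and WT1 at 0.653 in Cov. Most leukocyte markers were low, with 8 of them summing to between 4.19 and 5.08 FPKM in the Ku DMSO libraries and between 5.40 and 5.90 in the Cov ones. Of these 2 were above 1 FPKM in Ku, CD68 at a mean of 2.31 and CD14 at 1.31, and 1 in Cov, CD68 at 4.12. PTPRC, the pan-leukocyte marker, was at 0.235 FPKM in Ku and 0.130 in Cov. Of 5 fibroblast markers 1 was above 1 FPKM in Ku and 2 in Cov, where COL1A2 stood at 42.2.

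Before any THZ1, the effectors among the members stood higher in Cov than in Ku, while the transcription factors among the members differed less. IFIT3, which binds IFIT1 in an antiviral RNA-binding complex, had 18.3 and 13.4 FPKM in the 2 Ku DMSO libraries and 144.6 and 174.1 in the Cov ones. MX1, a GTPase that blocks viral nucleocapsids, had 9.90 and 4.80 in Ku and 97.2 and 110.3 in Cov. The libraries of the lines did not overlap for either gene. OAS1, which makes the 2-5A messenger that activates RNase L, had 1.88 and 1.06 FPKM in Ku, near the level that defines an active gene, and 60.7 and 64.2 in Cov. IFIT1, which binds foreign 5' ends of RNA, had 7.38 and 4.24 in Ku and 58.8 and 65.9 in Cov. ISG15, a ubiquitin-like protein attached to other proteins, was the most abundant member in both lines per length of transcript, with 105.9 and 91.5 FPKM in Ku and 285.8 and 298.0 in Cov. As ratios of the DMSO means, Cov over Ku was 42.5 for OAS1, 14.1 for MX1, 10.7 for IFIT1, 10.0 for IFIT3 and 2.96 for ISG15.

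The 4 factors showed smaller ratios. IRF9, the DNA-binding partner of STAT2, had 29.2 and 23.3 FPKM in Ku and 30.8 and 35.4 in Cov, a ratio of 1.26. STAT2 had 8.06 and 5.87 in Ku and 12.7 and 13.4 in Cov, a ratio of 1.87. IRF7 had 6.43 and 6.76 in Ku and 14.5 and 12.9 in Cov, a ratio of 2.07. IRF1 alone among the 9 was lower in Cov, with 11.1 and 12.8 FPKM against 20.3 and 16.1 in Ku. Both Cov libraries were thus above both Ku libraries for 8 of 9 members, beside 54.2% of all active genes, and the median ratio of the members was 2.96, beside 1.23 over all active genes. The tables were normalized separately, so these levels stand side by side and were not tested, nor were fold changes tested between the lines; line, medium and table cannot be told apart.

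**Figure D1:**
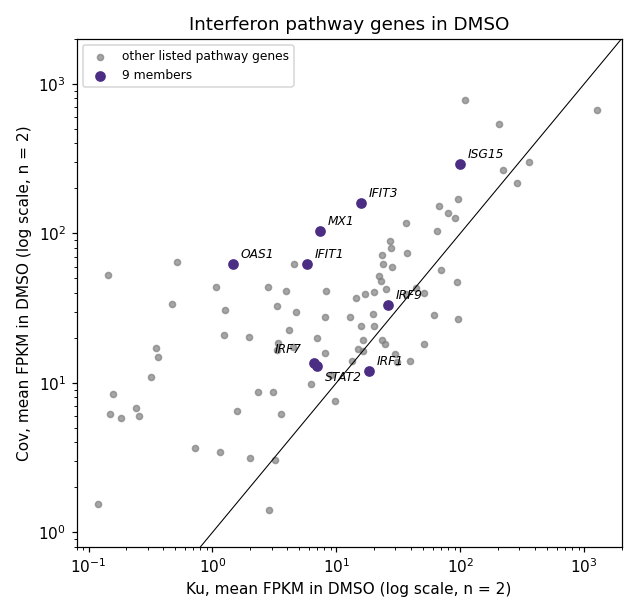
Mean FPKM in the 2 DMSO libraries of Ku (horizontal, log scale) and of Cov (vertical, log scale) for each active gene of the interferon pathway list (grey) and the 9 members (purple), with the line of equal level. The members IFIT1, IFIT3, OAS1, MX1 and ISG15 lie well above the line, IRF9 just above it, and IRF1 below it.

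Within Ku, the order of members by DMSO level was ISG15, IRF9, IRF1, IFIT3, MX1, STAT2, IRF7, IFIT1 and OAS1. The libraries of IRF1 and IFIT3 overlapped, as did those of each neighbouring pair from MX1 to IFIT1, so these orders were within the spread. In Cov the order was ISG15, IFIT3, MX1, OAS1, IFIT1, IRF9, IRF7, STAT2 and IRF1, with overlap between OAS1 and IFIT1 and between neighbours from IRF7 to IRF1.

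The comparison of each THZ1 dose with DMSO asks which transcripts were lost within 6 hr of kinase inhibition. In Ku at 50 nM, IRF1, OAS1, IRF9 and IFIT3 stood at 37.8%, 37.8%, 39.7% and 40.5% of their mean DMSO level, ISG15 overlapped DMSO, and 0 of 9 members were called lower with limma (adjusted p under 0.001, with a log2 fold change past 0.5 in size), beside 11.3% of all active genes. At an unadjusted p under 0.05 limma counted 4 members lower, beside 61% of all active genes, and at an adjusted p under 0.05 with the same fold threshold also 4, beside 40.2%. The RNA came from equal cell numbers of 1 line, but in bulk RNA a loss in every cell and a loss in some of the cells cannot be told apart. IRF1, whose protein also restrains cell growth, went from 20.3 and 16.1 FPKM to 7.60 and 6.15, a log2 fold change of log2(FPKM + 1) of -1.28 (SE 0.19, adjusted p = 0.00269). IRF9 went from 29.2 and 23.3 to 11.4 and 9.43, a log2 fold change of -1.25 (SE 0.15, adjusted p = 0.00137). IFIT3 went from 18.3 and 13.4 to 6.71 and 6.16, a log2 fold change of -1.17 (SE 0.17, adjusted p = 0.00260). None of these 3 genes overlapped between 50 nM and DMSO libraries, yet their adjusted p stayed above the threshold.

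The other members had log2 fold changes closer to 0 at 50 nM in Ku. ISG15 had 87.9 and 100.4 FPKM against 105.9 and 91.5 in DMSO, with overlapping libraries and a log2 fold change of -0.07 (SE 0.10, adjusted p = 0.602), whose sign turned to 0.04 without DMSO replicate 1 and to 0.03 without 50 nM replicate 1. OAS1 was at 0.570 and 0.542 FPKM (log2 fold change -0.65, adjusted p = 0.0150), and at such levels the added 1 FPKM makes the fold change smaller than the ratio of means. STAT2 at 5.41 and 4.50, IRF7 at 5.58 and 4.70, IFIT1 at 3.83 and 3.09 and MX1 at 4.28 and 3.72 had log2 fold changes of -0.41, -0.31, -0.58 and -0.67, with adjusted p between 0.0823 and 0.105. Both 50 nM libraries were below both DMSO libraries for 8 of 9 members, beside 75.8% of all active genes.

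The DMSO replicates of Ku themselves differed for several members. Replicate 1 was above replicate 2 in 8 of 9 members, by a median of 0.40 on the log2(FPKM + 1) scale, beside 0.16 over all active genes, of which 86.1% were higher in replicate 1. For MX1 the difference was 0.91, larger than that of 99.4% of active genes, and for IFIT1 it was 0.68, larger than that of 99.1%. It was also positive for 48 of 50 listed effectors. The error of the MX1 fold changes in Ku, an SE of 0.29, was the largest of the 9 members.

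At 250 nM in Ku, 6 of 9 members were called lower on the deposited spike-in scale, beside 68.6% of all active genes. Of the genes above 1 FPKM in Ku, as all 9 members were, 74.9% were called lower. None of the members was called higher, beside 0.0491% of all active genes. IRF1 had the largest fall: 0.872 and 1.37 FPKM remained of 20.3 and 16.1, a mean of 6.16% of the DMSO level, with a log2 fold change of -3.18 (SE 0.19, adjusted p = 2.15e-05). Only 2.69% of active genes had a lower log2 fold change in this comparison. IFIT3 fell to 1.87 and 2.15 FPKM, a log2 fold change of -2.47 (SE 0.17, adjusted p = 3.46e-05). IRF9 fell to 4.05 and 4.53 FPKM, a log2 fold change of -2.36 (SE 0.15, adjusted p = 2.71e-05). IRF7, which kept most of its level at 50 nM, fell to 1.49 and 1.60 FPKM, a log2 fold change of -1.58 (SE 0.13, adjusted p = 6.70e-05). IFIT1 fell to 0.989 and 1.06 FPKM, a log2 fold change of -1.71 (SE 0.24, adjusted p = 0.000614). ISG15 fell to 40.1 and 37.5 FPKM, 39.3% of its DMSO level, with a log2 fold change of -1.32 (SE 0.10, adjusted p = 4.75e-05).

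The other 3 members missed the call in Ku at 250 nM. STAT2 was at 3.27 and 3.91 FPKM (log2 fold change -0.79, adjusted p = 0.00687), OAS1 at 0.600 and 0.482 (log2 fold change -0.66, adjusted p = 0.00691) and MX1 at 2.30 and 2.48 (log2 fold change -1.23, adjusted p = 0.00735). All 9 members had both 250 nM libraries below both DMSO libraries, as did 95.9% of all active genes. The call of IFIT1 was lost when any 1 of the 4 treated libraries was left out and with no minimum FPKM (adjusted p = 0.00280), that of IRF7 without 250 nM replicate 1, and 8 members were called without DMSO replicate 2, beside 63% of all active genes in that fit. OAS1 went from a low level, and its fold change on the scale of log2(FPKM + 1) understates the ratio of its means, which was 2.72.

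**Figure D2:**
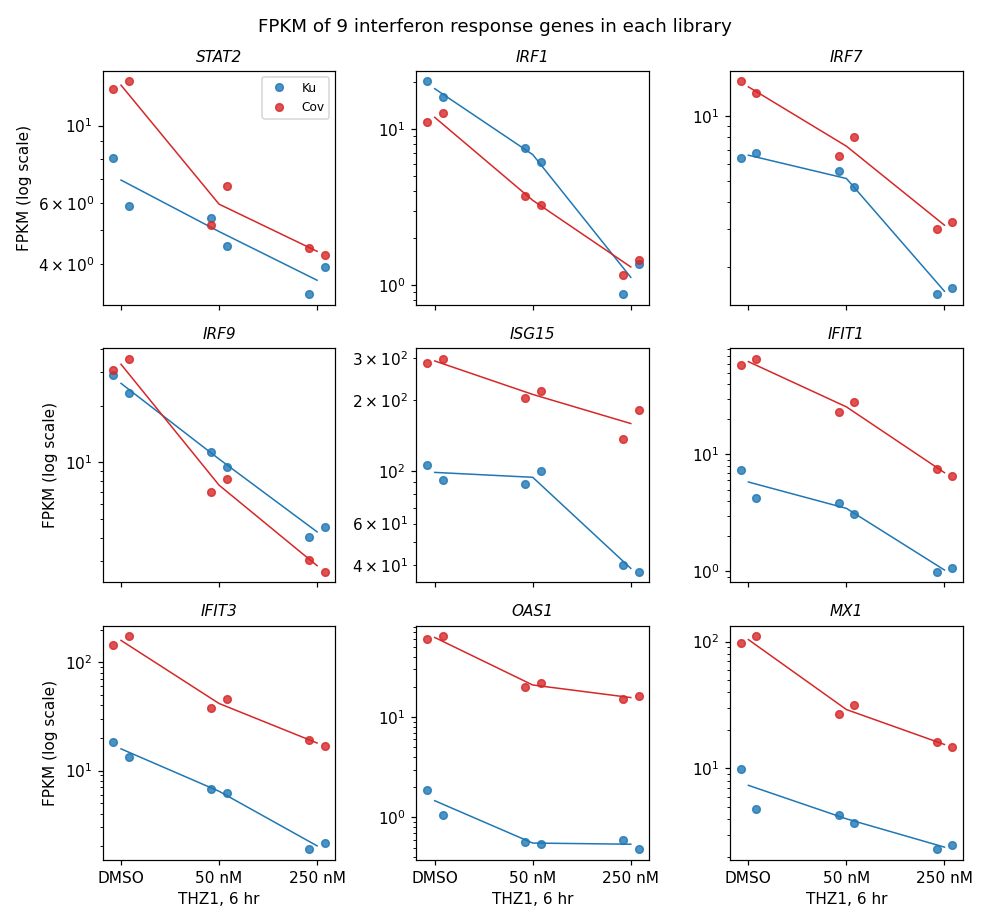
FPKM of each member (log scale, a scale of its own in each panel) in the 2 libraries of DMSO, 50 nM and 250 nM THZ1 in Ku (blue) and Cov (red), with lines through the means. On this spike-in scale every member is lowest at 250 nM in both lines, while Ku ISG15 at 50 nM and Ku OAS1 between the doses overlap; STAT2 and ISG15 turn upward at 250 nM in both lines, and MX1 and OAS1 in Ku and OAS1 in Cov, when libraries are scaled to equal median FPKM.

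In Cov most members fell at the lower dose. At 50 nM 8 of 9 passed as lower on the spike-in scale, beside 70.5% of all active genes, and 0 higher, beside 0.0772%. The largest falls were of IRF9, from 30.8 and 35.4 FPKM to 6.999 and 8.16 (log2 fold change -1.99, SE 0.12, adjusted p = 2.25e-05), and of IFIT3, from 144.6 and 174.1 to 37.7 and 45.6 (log2 fold change -1.91, SE 0.13, adjusted p = 2.73e-05). Lower log2 fold changes were seen in 2.06% of active genes for IRF9 and in 2.54% for IFIT3. MX1 fell from 97.2 and 110.3 to 26.7 and 31.6 FPKM and OAS1 from 60.7 and 64.2 to 19.99 and 21.9, with log2 fold changes of -1.80 and -1.53. IRF1 fell from 11.1 and 12.8 to 3.73 and 3.27 FPKM, and IFIT1 from 58.8 and 65.9 to 23.2 and 28.0, with log2 fold changes of -1.52 and -1.26.

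STAT2 at 5.17 and 6.71 FPKM and IRF7 at 6.51 and 8.001 also fell at 50 nM in Cov, with log2 fold changes of -1.03 and -0.83. These were the 2 calls that depended on single libraries: both were lost without either DMSO library, and that of IRF7 also without 50 nM replicate 1 or with no minimum FPKM (adjusted p = 0.00124). ISG15 was at 203.0 and 218.5 FPKM, 72.2% of its DMSO level, with a log2 fold change of -0.47 (SE 0.14, adjusted p = 0.0125). It was the member outside the call, although its libraries did not overlap those of DMSO. All 9 members had both 50 nM libraries below both DMSO libraries, as did 95.7% of all active genes.

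At 250 nM in Cov all 9 members passed as lower on the spike-in scale, beside 84% of all active genes, and 0 higher, beside 0.105%. IRF9 fell to 3.04 and 2.63 FPKM, 8.58% of its DMSO level, with a log2 fold change of -3.15 (SE 0.12, adjusted p = 9.39e-07). IFIT3 fell to 19.2 and 16.8 FPKM and IFIT1 to 7.45 and 6.53, with log2 fold changes of -3.08 (SE 0.13) and -2.99 (SE 0.12). MX1 fell to 16.1 and 14.8 FPKM and IRF1 to 1.17 and 1.45, with log2 fold changes of -2.67 and -2.48. OAS1 fell to 15.2 and 16.2 FPKM, IRF7 to 3.02 and 3.23 and STAT2 to 4.45 and 4.25, with log2 fold changes of -1.93, -1.83 and -1.39. ISG15 kept the largest share, 54.4% of its DMSO level, at 136.5 and 181.1 FPKM (log2 fold change -0.89, SE 0.14, adjusted p = 0.000435), and its call was lost without either DMSO library and with no minimum FPKM (adjusted p = 0.00116). Both 250 nM libraries were below both DMSO libraries for 9 of 9 members, as for 95.6% of all active genes.

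**Figure D3:**
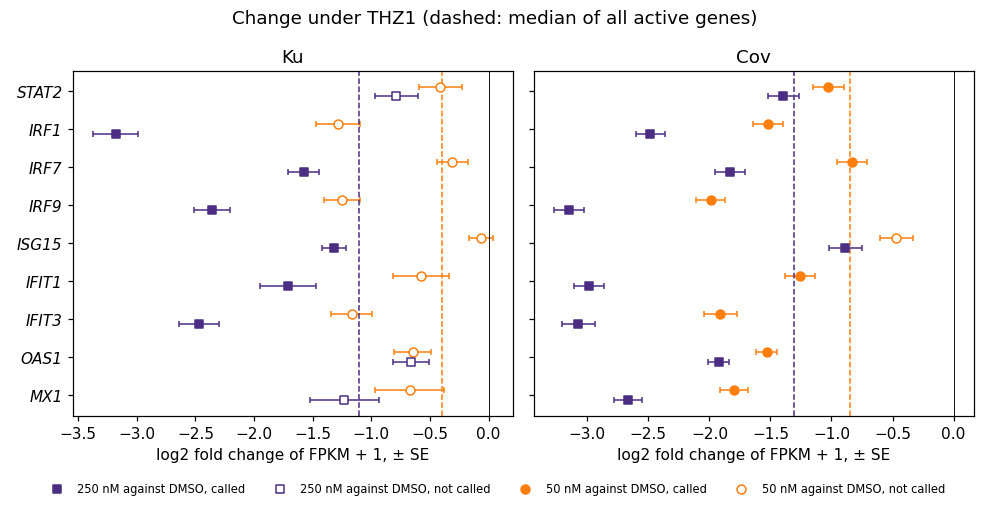
Log2 fold change of log2(FPKM + 1), with its SE, of each member at 50 nM (circles) and 250 nM (squares) against DMSO in Ku and Cov, filled where called lower, with dashed lines at the median of all active genes for each dose. On the spike-in scale all values lie below 0, and STAT2 and OAS1 in Ku and ISG15 in Cov lie to the right of the dashed line of 250 nM; with libraries scaled to equal median FPKM, STAT2, ISG15 and OAS1 in both lines and MX1 in Ku exceed 0 at 250 nM, and STAT2, ISG15 and IRF7 in both lines at 50 nM.

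Because both doses share their DMSO libraries, the step from 50 to 250 nM was also fitted. In Ku all 9 members had negative log2 fold changes from 50 to 250 nM. IRF9 (-1.11), IFIT1 (-1.13), MX1 (-0.56) and STAT2 (-0.38) did not overlap between these doses but were not called. In Ku 4 of 9 members were called lower, beside 36% of all active genes: IRF1 (log2 fold change -1.90), IFIT3 (-1.30), IRF7 (-1.27) and ISG15 (-1.25). That count became 0 with no minimum FPKM, 1 without 50 nM replicate 1 and 0 without 50 nM replicate 2 or either 250 nM library. In those fits the share of all active genes called lower also dropped, to 13.3% with no minimum FPKM, 5.89% and 11.2% without 50 nM replicate 1 and 2, and 5.55% and 7.17% without 250 nM replicate 1 and 2. OAS1 did not separate between the doses, with overlapping libraries and a difference of -0.01 (SE 0.16), of which the sign turned to 0.04 without 250 nM replicate 2. In Cov 6 of 9 were called lower by limma, beside 24.4% of all active genes. IFIT1 came first (log2 fold change -1.73, SE 0.12, adjusted p = 6.62e-05), then IFIT3 (-1.17), IRF9 (-1.16), IRF7 (-0.996), IRF1 (-0.96) and MX1 (-0.87). The Cov count became 3 without either DMSO library or 250 nM replicate 1, 1 without 250 nM replicate 2, 2 with no minimum FPKM and 1 with a block for the replicate number. The share of all active genes was then 15.4% without either DMSO library, 11.9% and 10.7% without 250 nM replicate 1 and 2, 14.9% with no minimum FPKM and 7.93% with the block. After scaling to equal median FPKM 0 members were called lower for this step in Ku and 1 in Cov, beside 6.59% and 5.05% of all active genes, and after median-of-ratios scaling also 0 and 1, beside 11.1% and 7.92%. STAT2, ISG15 and OAS1 had steps of -0.37, -0.42 and -0.39 in Cov and were not called.

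The levels of DMSO, 50 nM and 250 nM followed that order without overlap for 7 of 9 members in Ku, beside 66.7% of all active genes, the exceptions being ISG15 and OAS1. In Cov all 9 members followed it, beside 73.8%. Ordered over all 6 groups, MX1, OAS1, ISG15, IFIT1 and IFIT3 had each Cov group above each Ku group by mean, so that Cov cells at 250 nM still held a mean of 15.4 FPKM of MX1 and 15.7 of OAS1 when untreated Ku cells held 7.35 and 1.47. IFIT1 and IFIT3 in Cov at 250 nM overlapped their Ku DMSO libraries. IRF1 and IRF9 ran differently: at 50 nM they were lower in Cov than in Ku, and at 250 nM IRF9 was lower in Cov, while IRF1 overlapped between the lines. For STAT2, Ku DMSO overlapped Cov at 50 nM, which overlapped Ku at 50 nM.

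Most active genes were lower under THZ1 in these libraries, so the members were read against all active genes. The median log2 fold change of the members was -0.65 in Ku at 50 nM and -1.58 at 250 nM, beside -0.40 and -1.11 over all active genes. In Cov it was -1.52 and -2.48, beside -0.85 and -1.31. The genes above 1 FPKM in Ku, among them all 9 members, had a median of -1.20 in Ku at 250 nM. Below the median of all active genes lay 7 members in Ku at each dose, 7 in Cov at 50 nM and 8 in Cov at 250 nM. ISG15 and IRF7 stood above it at 50 nM in both lines, ISG15 also at 250 nM in Cov, and STAT2 and OAS1 at 250 nM in Ku. The values relative to that median at 250 nM were -2.07 for IRF1, -1.36 for IFIT3 and -1.25 for IRF9 in Ku, and -1.84 for IRF9, -1.77 for IFIT3, -1.68 for IFIT1, -1.36 for MX1 and -1.18 for IRF1 in Cov.

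On scales that remove a fall common to all genes, fewer members were called lower and some fold changes turned. With each library scaled to the same median FPKM, which put the median of all active genes at 0.30 in Ku and 0.33 in Cov at 250 nM, 2 members were called lower in Ku, IRF1 (-1.73) and IFIT3 (-0.86), beside 11.7% of all active genes, and STAT2 was called higher (0.89), beside 27%. In Cov 4 were called lower, IRF9 (-1.34), IFIT3 (-1.05), IFIT1 (-1.04) and MX1 (-0.66), beside 11.3% of all active genes, and ISG15 was called higher (1.18), beside 26.6%. With a median-of-ratios scaling, IRF1, IRF9 and IFIT3 were called lower in Ku, beside 19% of all active genes, and IRF1, IRF9, IFIT1, IFIT3 and MX1 in Cov, beside 18.9%. On that scale 0 members were called higher, beside 11.1% of all active genes in Ku and 8.57% in Cov. At 50 nM no member was called on either scale in either line, beside 0.589% and 2.72% of all active genes called lower in Ku and 0.154% and 0.772% in Cov. IFIT3 was thus called lower at 250 nM in both lines on all 3 scales, while the sign of STAT2, ISG15 and OAS1 at 250 nM depended on the scale in both lines and that of MX1 in Ku.

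**Figure D4:**
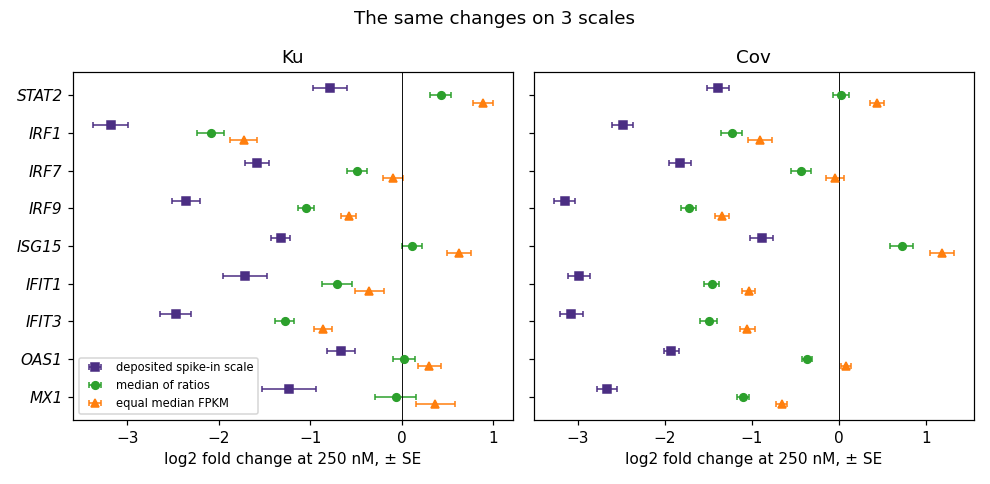
Log2 fold change at 250 nM against DMSO, with its SE, of each member on the deposited spike-in scale (purple squares), after median-of-ratios scaling (green circles) and after scaling to equal median FPKM (orange triangles) in Ku and Cov. IRF1, IRF7, IRF9, IFIT1 and IFIT3 stay below 0 on all 3 scales in both lines, whereas STAT2, ISG15 and OAS1 cross 0 in both lines and MX1 in Ku.

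The members were set beside a list of 98 other genes of the interferon pathway, of which 86 were active. None of the 10 listed interferon genes was active in either line, the highest value among them in any library being 0.8 FPKM. Of the 86 active genes 11 were called lower at 50 nM and 58 at 250 nM in Ku, beside the 11.3% and 68.6% of all active genes, and 79 and 85 in Cov, beside 70.5% and 84%, with 0 higher in all 4 comparisons by limma, where none rose at an unadjusted p under 0.05 either. The share of all active genes called higher was 0.0842% in Ku at 50 nM. The 9 members were above 1 FPKM in libraries of both lines, but 13 of the 86 listed genes counted as active through Cov alone. At such low Ku levels a log2(FPKM + 1) fold change has little room. Of the other 73 listed genes 57 were called lower in Ku at 250 nM, beside 74.9% of all genes above 1 FPKM in Ku, and their median was -1.28, beside -1.20. The median log2 fold changes of the list were -0.42, -1.13, -1.13 and -1.82, beside the all-gene medians given for the members. The Ku count at 50 nM was 0 or 1 whichever library was left out, beside 0.0421% to 0.919% of all active genes in the same fits. That at 250 nM was 30 without either 250 nM library, beside 42.7% and 44.3%, and the Cov count at 50 nM was 42 without DMSO replicate 2, beside 30.3%. At 250 nM the split was 8 lower and 22 higher in Ku and 23 and 18 in Cov after scaling to equal median FPKM, where 11.7% of all active genes were called lower and 27% higher in Ku and 11.3% and 26.6% in Cov. It was 14 and 11 in Ku and 31 and 6 in Cov after median-of-ratios scaling, where the shares of all active genes were 19% and 11.1% in Ku and 18.9% and 8.57% in Cov.

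Of the receptors and kinases above 1 FPKM in Ku, 6 of 8 were called lower at 250 nM on the spike-in scale, beside 74.9% of all such genes. Their median was -1.31, beside -1.20. In Cov 9 of 9 active genes were called lower, beside 84% of all active genes, with a median of -1.80, beside -1.31. The ninth gene, active through Cov alone, was also called lower in Ku. IFNAR1, a chain of the type I receptor, had log2 fold changes of -1.49 and -2.17. The interferon gamma receptor chain IFNGR1 had -2.25 and -2.16, and its partner IFNGR2 had -1.28 in Ku, where it was not called (adjusted p = 0.00111), and -2.35 in Cov. JAK1, the kinase shared by these receptors, had -0.51 in Ku, where it was not called (adjusted p = 0.00279), and -1.48 in Cov.

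The sensors and relays detect viral nucleic acid and pass the signal on to interferon genes. Of those above 1 FPKM in Ku, 9 of 9 were called lower there at 250 nM on the spike-in scale, beside 74.9% of all such genes. Their median was -1.82, beside -1.20. In Cov 10 of 10 active genes were called lower, beside 84%, with a median of -2.27, beside -1.31. The tenth gene, active through Cov alone, was not called in Ku. MB21D1, the DNA sensor cGAS, stood at a mean of 3.92 FPKM in Ku and 41.4 in Cov DMSO libraries, and fell by 1.82 and 3.04 on the log2 scale. Its relay TMEM173, known as STING, had 65.1 and 103.1 FPKM in DMSO and log2 fold changes of -1.62 and -1.80. The RNA sensor DDX58, known as RIG-I, had -1.86 and -2.89. MAVS, the mitochondrial relay of RNA sensors, already had -2.02 and -1.75 at 50 nM and little more at 250 nM, -2.27 and -1.77. The kinase TBK1 had -2.28 and -2.78 at 250 nM.

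Of the other transcription factors 6 of the 6 above 1 FPKM in Ku were called lower there at 250 nM on the spike-in scale, beside 74.9% of all such genes. Their median of -1.08 was closer to 0 than the -1.20 of all such genes. In Cov 8 of 8 active genes were called lower, beside 84%, and the median of -1.36 was near the -1.31 of all active genes. Both remaining factors, active through Cov alone, were not called in Ku. IRF2, which competes with IRF1 for the same sites, fell at the lower dose already, from 8.77 and 7.40 FPKM to 1.10 and 0.993 at 50 nM and 0.370 and 0.331 at 250 nM in Ku. In Cov IRF2 went from 26.9 and 28.0 to 4.27 and 4.25 and then 1.75 and 1.92. STAT3 had log2 fold changes of -0.61 and -1.22 and IRF3, which acts downstream of TBK1, -1.57 and -1.18. ETV7, an ETS family factor, had a DMSO mean of 0.150 FPKM in Ku and 6.19 in Cov, and fell by 2.14 in Cov.

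On the spike-in scale negative regulators had the lowest median of the roles at 250 nM in both lines, -1.92 in Ku and -2.34 in Cov, beside -1.20 for all genes above 1 FPKM in Ku and -1.31 for all active genes in Cov. In Ku 8 of 9 were called lower, beside 74.9%, and in Cov 9 of 9, beside 84%. IRF2BP2, a corepressor that binds IRF2, went from 45.9 and 42.0 FPKM to 0.803 and 0.888 in Ku and from 40.8 and 45.3 to 2.75 and 2.71 in Cov, with log2 fold changes of -4.61 and -3.56. Its relative IRF2BP1 had -4.60 and -2.81. SOCS1, an inhibitor of JAK kinases that interferon itself induces, went from 1.15 and 2.01 FPKM to 0.192 and 0.201 in Ku (log2 fold change -1.09, adjusted p = 0.000901) and from 6.74 and 6.22 to 0.905 and 1.16 in Cov (-1.88). PIAS1, a SUMO ligase, had -2.44 and -3.06, and PTPN1, a phosphatase that acts on JAK kinases, -1.92 and -2.51.

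Effectors had log2 fold changes from -3.10 to -0.04 in Ku and from -4.06 to -0.59 in Cov at 250 nM. Of the 50, 9 were active through Cov alone. Of the other 41, 28 were called lower in Ku on the spike-in scale, beside 74.9% of all genes above 1 FPKM in Ku. Their median was -1.12, beside -1.20. In Cov 49 of 50 were called lower, beside 84% of all active genes, with a median of -1.70, beside -1.31. In DMSO both Cov libraries were above both Ku ones for 34 of those 41, beside 53.4% of all genes above 1 FPKM in both lines, and the median ratio of DMSO means was 2.36, beside 1.20. The chemokine CXCL10 differed in level between the lines: 1.37 and 0.754 FPKM in DMSO in Ku, where it was not called at 250 nM (-0.51, adjusted p = 0.0133), and 41.8 and 46.1 in Cov, where it went to 3.31 and 2.85 (-3.46). IFIT5, a relative of IFIT1, had log2 fold changes of -1.78 and -4.06, DTX3L, a ubiquitin ligase, -3.10 and -3.41, and PML, the scaffold of nuclear bodies, -2.40 and -2.47. Fold changes were small for the effectors most abundant in DMSO. IFITM3, which restricts viral entry, had DMSO means of 1267 FPKM in Ku and 672.1 in Cov and log2 fold changes of -0.45, not called, and -0.74. Its near-identical neighbour IFITM2, with which reads can be split uncertainly, had -0.57 and -0.64. IFI27, with DMSO means of 108.7 and 780.0 FPKM, had -0.72 in Ku and -0.59 in Cov (adjusted p = 0.00214), where it was the single listed active gene not called at 250 nM.

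**Figure D5:**
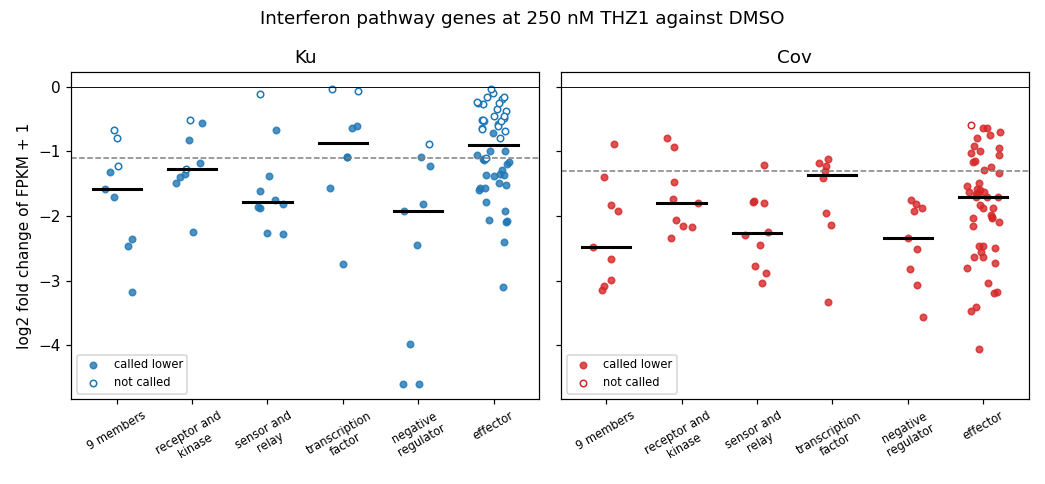
Log2 fold change of log2(FPKM + 1) at 250 nM THZ1 against DMSO on the spike-in scale for the 9 members and for the active genes of each role in the pathway list, in Ku and Cov, with black bars at group medians and a dashed line at the median of all active genes. Negative regulators have the lowest median of the listed roles in both lines, -1.92 and -2.34, and effectors spread from near 0 to below -3; after scaling to equal median FPKM 22 of 86 listed genes in Ku and 18 in Cov are called higher, beside 27% and 26.6% of all active genes.

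Among listed genes with a promoter window, 26 of 40 effectors held the ISRE letters in at least 1 window, as did 4 of 9 interferon genes, 2 of 7 sensors and relays, 1 of 8 negative regulators (SOCS1), 0 of 8 receptors and kinases and 0 of 4 transcription factors. These shares were not tested against each other. DTX3L, CXCL10, IFIT5, IFITM3 and IFI27 were among the 26, so effectors with large and with small fold changes carried the letters. The share of all windows, 3.574%, is counted per window and not per gene.

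Patterns over the 12 libraries were compared by Pearson's r of log2(FPKM + 1) less the DMSO mean of the line. IFIT1 was most like ANO6 (r = 0.996), SAMD9 (0.996) and IFIT2 (0.996), of which the last lies in the same gene cluster on chromosome 10. STAT2 was most like PDK1 (0.995), SAMD9L (0.994) and POLE2 (0.994), and MX1 most like NEDD4L (0.993), SRGAP1 (0.993) and SAMD9L (0.993). IRF9 was most like NDC80 (0.999), SETD7 (0.998) and NOL10 (0.998), IRF1 most like ZKSCAN2 (0.999), SETD1B (0.998) and PYGO2 (0.998), and IRF7 most like DDX55 (0.997), KCTD10 (0.995) and ZNF562 (0.995). IFIT3 was most like VPRBP (0.999), MOSPD1 (0.998) and DCDC2 (0.998), OAS1 most like SLC16A9 (0.995), XYLB (0.995) and PTGIS (0.994), and ISG15 most like TMEM222 (0.987), UBTD1 (0.985) and ADRM1 (0.985). The points share libraries and their common fall with dose: between 430 and 5211 active genes exceeded an r of 0.95 with a given member, fewest for ISG15 and most for IFIT3.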

How the data were processed

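The authors sequenced poly(A) RNA in 12 libraries from KURAMOCHI (Ku) and COV362 (Cov) cells, 2 per line and dose. The authors mixed ERCC spike-ins into RNA normalized by cell count, prepared stranded libraries, aligned single-end reads with HiSat to hg19, computed FPKM with cuffquant and cuffnorm, scaled these to the ERCC RNAs and deposited the result for each line separately, as 23713 rows of which 92 are ERCC. FPKM are not counts, so edgeR was not used.

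Active genes were those above 1 FPKM in at least 1 library. Each line was fitted separately with limma 3.58.1 in R 4.3.3 (lmFit, eBayes with trend, 3 groups of 2 libraries) on log2(FPKM + 1). P-values were two-sided, with Benjamini-Hochberg adjustment across the 14251 active genes. Calls required an adjusted p under 0.001 together with a log2 fold change past 0.5 in size. With 2 against 2 libraries an exact permutation test cannot give a p below 0.333. Plots were made with matplotlib 3.10.9 under Python 3.11.15. Promoters come from RefSeq (GRCh38.p14) and gene positions from GENCODE lifted to GRCh37.

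The members, the pathway list and the tests were chosen with earlier results of these data known. The rule for other named genes took SOCS1, any listed gene called higher, and, per role and line, the 2 active genes highest in DMSO and the 2 with the largest fall at 250 nM, plus the 3 genes most like each member; 1 gene that the rule took is not reported here. Alternatives comprised 0.1 as the pseudocount, 10 or 0 as the minimum FPKM, equal-median and median-of-ratios scaling, a fit of 2 groups only, a block for the replicate number, eBayes with no trend, a threshold of 0.05 on adjusted p, a fold threshold of 1 on the log2 scale, and each library left out in turn.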

Additional observations from a re-analysis of the deposited data

How the results depend on the processing

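Depth is unknown and each group has 2 libraries. Calls moved under several alternatives, and the cause of the changes below was not tested. With no minimum FPKM, the share of all active genes called lower in Ku at 50 nM went from 11.3% to 0.0211%. Differences between replicates 1 and 2 showed little correlation over genes between doses (r between -0.0703 and 0.0282). That r cannot see an offset common to all genes. Replicate 1 was above replicate 2 for 86.1%, 78.3% and 43.1% of active genes in Ku at DMSO, 50 nM and 250 nM. In Cov these shares were 13.8%, 26.1% and 51.6%. Whether replicate numbers pair the libraries is therefore not known. With the replicate number as a block, 1 member was called lower in Cov from 50 to 250 nM, not 6, and 6 listed genes in Ku at 50 nM, not 11, beside 7.93% and 6.94% of all active genes; the other counts stayed within 1.5 times.

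Of the member fold changes, 52 of 54 under a pseudocount of 0.1, 53 under a minimum FPKM of 10, 53 under eBayes without trend and 51 in fits of 2 groups kept direction and call. With a pseudocount of 0.1, 1 member was called lower in Ku at 50 nM, beside 11.5% of all active genes. With no minimum FPKM, 0 members were called lower in Ku and 2 in Cov from 50 to 250 nM, beside 13.3% and 14.9%, and 0 listed genes in Ku at 50 nM, beside 0.0211%. In fits of 2 groups 3 members were called from 50 to 250 nM in Cov, beside 17%, and 0 listed genes in Ku at 50 nM, beside 0.0632%. With an adjusted p under 0.05, 4 members and 34 listed genes were called lower in Ku at 50 nM, beside 40.2%, and with a log2 fold change beyond 1, 3 members from 50 to 250 nM in Cov, beside 14.3%.

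After scaling to equal median FPKM, members called lower numbered 2 in Ku and 4 in Cov at 250 nM with 1 called higher in each line, 0 in Cov at 50 nM, and 0 in Ku and 1 in Cov from 50 to 250 nM. The shares of all active genes called lower were 11.7% in Ku and 11.3% in Cov at 250 nM, and 0.154% in Cov at 50 nM. They were 6.59% in Ku and 5.05% in Cov from 50 to 250 nM. Called higher at 250 nM were 27% in Ku and 26.6% in Cov. Of listed genes 8 were lower and 22 higher in Ku and 23 and 18 in Cov at 250 nM, 1 was lower in Ku at 50 nM, and in Cov 0 were lower and 1 higher at that dose. At 50 nM 0.589% of all active genes were called lower in Ku, and in Cov 0.154% lower and 0.0912% higher. After median-of-ratios scaling, 3 members in Ku and 5 in Cov were called lower at 250 nM, 0 in Cov at 50 nM, and 0 in Ku and 1 in Cov from 50 to 250 nM. The shares of all active genes called lower were 19% in Ku and 18.9% in Cov at 250 nM, and 0.772% in Cov at 50 nM. They were 11.1% in Ku and 7.92% in Cov from 50 to 250 nM. Of listed genes 14 were lower and 11 higher in Ku and 31 and 6 in Cov at 250 nM, 5 lower in Ku at 50 nM, and 1 lower and 1 higher in Cov at 50 nM. Of all active genes 11.1% in Ku and 8.57% in Cov were called higher at 250 nM. At 50 nM 2.72% were called lower in Ku, and in Cov 0.772% lower and 0.14% higher.

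Equal-median scaling reversed 20 member fold changes. In Ku at 50 nM they were STAT2 0.19, IRF7 0.28 and ISG15 0.63; at 250 nM STAT2 0.89, ISG15 0.63, OAS1 0.30 and MX1 0.37; and from 50 to 250 nM STAT2 0.70, ISG15 0.00032, OAS1 0.58 and MX1 0.45. In Cov at 50 nM they were STAT2 0.067, IRF7 0.27 and ISG15 0.75; at 250 nM STAT2 0.44, ISG15 1.18 and OAS1 0.082; and from 50 to 250 nM STAT2 0.37, ISG15 0.43 and OAS1 0.42. Median-of-ratios scaling reversed 16. In Ku at 50 nM they were STAT2 0.064, IRF7 0.16 and ISG15 0.48; at 250 nM STAT2 0.43, ISG15 0.11 and OAS1 0.026; and from 50 to 250 nM STAT2 0.37, OAS1 0.35 and MX1 0.13. In Cov at 50 nM they were IRF7 0.10 and ISG15 0.56; at 250 nM STAT2 0.025 and ISG15 0.72; and from 50 to 250 nM STAT2 0.13, ISG15 0.16 and OAS1 0.16.

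Leaving out each library in turn, members called lower ranged from 0 to 0 in Ku at 50 nM, 4 to 8 in Ku at 250 nM, 6 to 8 in Cov at 50 nM and 8 to 9 in Cov at 250 nM; from 50 to 250 nM they ranged from 0 to 4 in Ku and 1 to 6 in Cov. Listed genes called lower ranged from 0 to 1 and 30 to 59 in Ku at 50 and 250 nM, and from 42 to 77 and 78 to 84 in Cov. In the same fits the share of all active genes called lower ranged from 0.0421% to 0.919% and 42.7% to 63.5% in Ku, from 30.3% to 69.7% and 73.3% to 86.6% in Cov, and for the step from 50 to 250 nM from 5.55% to 32.3% in Ku and 10.7% to 27.9% in Cov. The sign turned for ISG15 in Ku at 50 nM, whose fold change ranged from -0.17 to 0.037, being positive without DMSO replicate 1 or 50 nM replicate 1, and for OAS1 in Ku from 50 to 250 nM, which ranged from -0.070 to 0.041, being positive without 250 nM replicate 2.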
